A study of Mus musculus with 12 samples.

Results

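The enzymes that modify tRNA were examined as a group, leaving out the KEOPS complex and the other genes of the t6A pathway, in order to ask whether their transcripts or their ribosome occupancy differ when Osgep is depleted. Osgep encodes the catalytic subunit of KEOPS, which makes N6-threonylcarbamoyladenosine (t6A) beside the anticodon in the tRNAs decoding A-initial codons. The members were 52 genes chosen by symbol from knowledge of tRNA modification, with no measured value in the rule, out of 55487 genes in each deposited table. Earlier results of these data were known when they were chosen. All 52 symbols were found among the gene IDs of the tables. The cells were B16F10, a mouse melanoma line, expressing a control short hairpin RNA (shCtr, labelled WT) or hairpin 2 against Osgep (shOSGEP, labelled KD OSGEP). There were 3 replicates of each, and no other allele was named. For ribosome profiling, the study's methods give cycloheximide to the cells of both genotypes before lysis. Each replicate gave a total RNA library and a library of ribosome-protected fragments (RPF), so that 12 libraries fell into 4 groups of 3. Each genotype is 1 lentiviral hairpin in 1 cell line, and the study's methods give 3 separate transductions as the rule for its experiments, though the labels tie no library to a transduction. The p-values measure the spread between these samples.

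A tRNA carries many modified bases. Those of the anticodon loop tune codon reading and hold the frame, and those of the tRNA body keep the fold and protect the molecule from degradation. At the wobble position, Elongator, Alkbh8 and the Ctu1-Ctu2 thiolase build the side chain and the sulfur of cytosolic uridines, and a separate set of enzymes does so in mitochondria. The neighbouring base is where t6A sits in the tRNAs of A-initial codons, and in other tRNAs it holds wybutosine, isopentenyladenosine, methylguanosine or methylinosine. Several of these enzymes, among them Elongator, Ctu1, Nsun2 and Mettl1, are known for raised levels in tumours, melanoma included for Elongator and Ctu1.

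The depth of total RNA was 46.7 to 81.1 M counts a library, with 63193 to 113502 on the members. That of RPF was 12.9 to 40.3 M counts, and ribosomal RNA took 27.7% to 67.7% of them, so that only 6053 to 29579 counts per library fell on the members. The lowest of these was shOSGEP replicate 1. All 7 melanocyte markers examined were detected, at 6.31 to 6894 CPM (counts scaled to library size, here by TMM) in total RNA, and of the leukocyte, fibroblast, keratinocyte, endothelial and epithelial markers only Cd68, Col1a1 and Pdgfra passed 1 CPM in any total RNA library. Each of the 7 melanocyte markers was lowest in the shOSGEP replicate 1 total RNA library, where Pmel was 203 CPM against 1694 to 3665 CPM elsewhere. Osgep RNA stood at 13.9, 15.7 and 15.3 CPM in shCtr replicates 1 to 3 and at 0.589, 6.92 and 6.77 CPM in shOSGEP, and its RPF at 7.72, 7.27 and 4.71 against 4.87, 3.81 and 2.36 CPM. The gene was thus lower in every pair of both assays, with log2 changes of −1.65 in RNA (SE 0.77) and −0.84 in RPF (SE 0.39). It did not pass the test across all genes (adjusted p = 0.975 in RNA, edgeR). In RNA the same shOSGEP replicate 1 library was far below the others. In RPF that replicate, at 4.87 CPM, was the highest of shOSGEP and lay above shCtr replicate 3 at 4.71 CPM. In bulk libraries such as these, fewer cells expressing a gene and less RNA per cell cannot be told apart.

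The sequences below show the material behind the comparison. The first is the target context of hairpin 2, given by the study, which a search placed at bases 486 to 526 of the 1005-base Osgep coding sequence (chr14:50906478-50924893, minus strand, GRCm38, GENCODE M21).

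Osgep hairpin 2 context: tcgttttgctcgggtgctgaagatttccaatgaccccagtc

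The others are the first 90 bases (30 codons) of the coding sequences of 4 members, 5′ to 3′ from GENCODE M21 transcripts, with every codon that starts with A in capitals. They were chosen to show the range in the use of such codons. Urm1 (chr2:29820075-29845002, plus strand) and Mettl6 (chr14:31473578-31495040, minus strand) also come back in the results, Trmt10c (chr16:56032609-56037819, minus strand) had the highest share of these codons among the members, and Adat3 (chr10:80602880-80607654, plus strand) the lowest.

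Urm1: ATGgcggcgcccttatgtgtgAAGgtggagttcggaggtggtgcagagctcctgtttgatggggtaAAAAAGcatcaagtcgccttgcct

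Mettl6: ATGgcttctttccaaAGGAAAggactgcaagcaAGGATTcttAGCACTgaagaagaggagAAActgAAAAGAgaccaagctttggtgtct

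Trmt10c: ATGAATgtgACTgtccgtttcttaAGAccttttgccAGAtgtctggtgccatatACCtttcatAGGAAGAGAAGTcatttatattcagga

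Adat3: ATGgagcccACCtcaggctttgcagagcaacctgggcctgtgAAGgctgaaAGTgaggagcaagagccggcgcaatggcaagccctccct

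Of the 30 codons shown, 4 in Urm1, 10 in Mettl6, 10 in Trmt10c and 4 in Adat3 started with A. Over whole coding sequences the share was 19.8%, 24.8%, 33.6% and 12.9% in these genes. The median of the members was 26.3%, against 27% over the 11264 protein-coding genes tested, so that the members as a group were close to the typical gene in their use of codons read by t6A-bearing tRNAs.

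Levels between genes were compared per length, as CPM per kb of transcript for RNA and per kb of coding sequence for RPF. Nsun2, a cytosine methyltransferase of tRNA, stood highest in shCtr total RNA with 76.3 ± 11.7 CPM per kb (SD, n = 3). Trmt112, the activating partner of Alkbh8 and other methyltransferases, followed with 29.4 ± 4.47, the dihydrouridine synthase Dus1l with 27.7 ± 2.48, the Elongator subunit Elp5 with 23.7 ± 1.71 and the pseudouridine synthase Pus1 with 21.4 ± 3.0 CPM per kb. Nsun2 lay above the others by more than the spread over replicates. Trmt112 and Dus1l did not differ beyond their spread, nor did Elp5 and Pus1, while Dus1l and Elp5 differed by more than either SD. On the opposite strand, Prdx5 overlaps 33.2% of the exonic bases of Trmt112, and Gm26515 overlaps 23.8% of those of Pus1. The use of strand in the counting was not stated, so the ranks of Trmt112 and Pus1 are uncertain. At the other end were Nsun6 (1.71 ± 0.28), Trmt13 (1.52 ± 0.33), Trmt12 (1.14 ± 0.08), Tyw3 (0.79 ± 0.05) and Lcmt2 (0.20 ± 0.23), of which Trmt12, Tyw3 and Lcmt2 belong to the wybutosine pathway of phenylalanine tRNA. Lcmt2 was not evenly low: it measured 1.43 CPM in shCtr replicate 1 and 2.34 CPM in shOSGEP replicate 1, but 0.198 to 0.491 CPM in the other 4 total RNA libraries. The median member stood at 6.16 CPM per kb in RNA, against 11.2 over the protein-coding genes tested, and 15 of the 52 lay above that value. In RPF the corresponding medians were 5.21 and 9.10 CPM per kb, again with 15 members above.

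**Figure D1:**
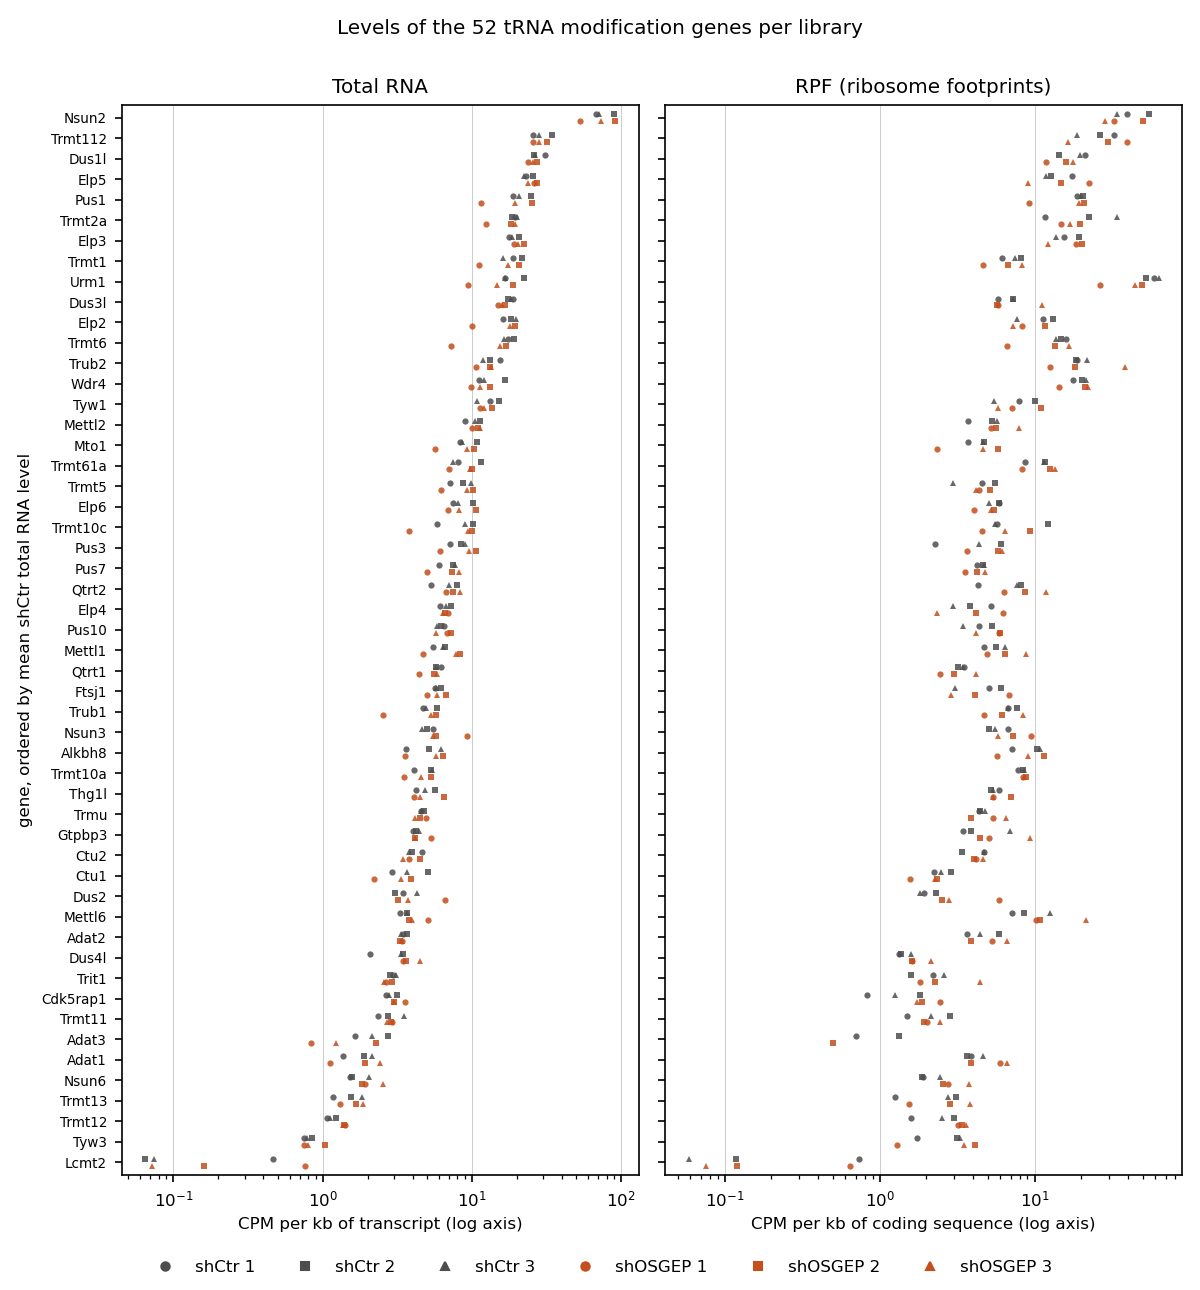
Level of each of the 52 genes in each of the 12 libraries, as CPM per kb of transcript in total RNA (left) and per kb of coding sequence in RPF (right), on log axes, with genes ordered by their mean shCtr total RNA level. Grey points are shCtr and orange points shOSGEP, the marker shape gives the replicate, and the 3 RPF libraries in which Adat3 had a count of 0 have no point. Nsun2 leads in RNA with 76.3 CPM per kb in shCtr and Lcmt2 closes at 0.20, while Urm1 leads in RPF.

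The order of footprint levels followed that of RNA levels in most genes (Spearman 0.83 across the 52 genes, which share libraries and are not independent). Urm1, the ubiquitin-like sulfur carrier for wobble thiolation, departed from it. It ranked 9 in RNA with 18.5 ± 3.16 CPM per kb and 1 in RPF with 58.2 ± 5.26 CPM per kb, ahead of Nsun2 with 42.7 ± 10.6. Its coding sequence makes up 13.8% of the annotated transcript, so the choice of the length bears heavily on that value.

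The partners of obligate complexes were not all at equal levels. In shCtr total RNA, the ratio per length of Wdr4 to Mettl1, which together make 7-methylguanosine, was 2.15 ± 0.34 (SD, n = 3), and in RPF 3.56 ± 0.22. Trmt61a to Trmt6, the catalytic and the second subunit of the 1-methyladenosine enzyme, gave 0.51 ± 0.08 in RNA and 0.73 ± 0.16 in RPF. Qtrt2 to Qtrt1, which insert queuine at the wobble position, gave 1.15 ± 0.27 and 2.00 ± 0.69, and Ctu2 to Ctu1 gave 1.13 ± 0.41 and 1.73 ± 0.49. Wdr4 was thus the partner at the higher level in both assays and Trmt61a the one at the lower level. Qtrt1 and Qtrt2 were alike in RNA within their spread, and so were the 2 thiolase subunits. Within Elongator, Elp5 had the highest and Elp4 the lowest mean of Elp2 to Elp6 in RNA, and Elp5 stood at 3.55 ± 0.24 times Elp4 in shCtr and 3.85 ± 0.24 in shOSGEP. In RPF the highest mean was that of Elp3, the catalytic subunit, at 2.94, 5.07 and 4.62 times Elp4 in shCtr (4.21 ± 1.12) and 2.94, 4.9 and 5.20 times in shOSGEP (4.35 ± 1.23). Elp4 had the lowest mean in both assays and both genotypes, but in shOSGEP replicate 1 Elp6 lay below it in both assays.

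The first comparison asked whether RNA of the members differed between shOSGEP and shCtr. By the quasi-likelihood test of edgeR, 0 of the 52 members passed an adjusted p of 0.05 (background: 0% of 14516 genes tested) and 0 had an unadjusted p under 0.05 (background: 1.78%). The median log2 change was −0.01, with 22 members above 0, against 0.02 over all genes. The single changes ran from −0.59 (Adat3) to 0.71 (Lcmt2), and only these 2 members lay beyond 0.5 on the log2 scale (3.85% of the members and 17.9% of all genes). The Lcmt2 value rested on 11 to 151 counts per library. It was 2.25 without shCtr replicate 1 and −0.81 without shOSGEP replicate 1. All 3 pairs of replicates pointed the same way in 17 members, 8 higher and 9 lower in shOSGEP (32.7%, background 33.9%), and the 3 libraries of each genotype did not overlap in 4 members (7.69%, background 7.08%). Both counts were near the background. The median standard error of the members was 0.23, and the smallest unadjusted p was 0.112 (edgeR).

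The second asked the same of ribosome footprints. Lcmt2, with 4 to 27 RPF counts per library, did not pass the filter on low counts, which left 51 members. Of these, 0 were called (background: 0% of 13529 genes) and 0 had an unadjusted p under 0.05 (background: 1.03%). The median log2 change was 0.08, with 30 of 51 above 0, against 0.05 over all genes. The pairs agreed in direction in 17 members, 13 of them higher (33.3%, background 30.8%), and the genotypes did not overlap in 5 (9.80%, background 5.07%), namely Trmt12, Nsun6, Dus2 and Dus4l, higher in shOSGEP, and Urm1, lower.

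The third asked whether translational efficiency, footprints relative to RNA, differed. The term tested was the assay-by-genotype interaction, and again 0 of 51 members were called (background: 0% of 12560 genes) and 0 had an unadjusted p under 0.05 (background: 0.135%). The median change was 0.08 and 35 of 51 members lay above 0 (68.6%, against 49.6% of all genes). It was the same way in all 3 pairs in 11 members, 10 higher and 1 lower (21.6%, background 22.8%), with 1458 of all genes higher and 1406 lower, and the groups did not overlap in 2 (3.92%, background 4.34%). In total RNA and RPF together, 7 of 51 members kept the same direction in all pairs of both assays (13.7%, background 14.2%): Nsun3, Mettl6, Trmt12, Nsun6 and Dus4l were higher in shOSGEP, and Urm1 and Ctu1 were lower.

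**Figure D2:**
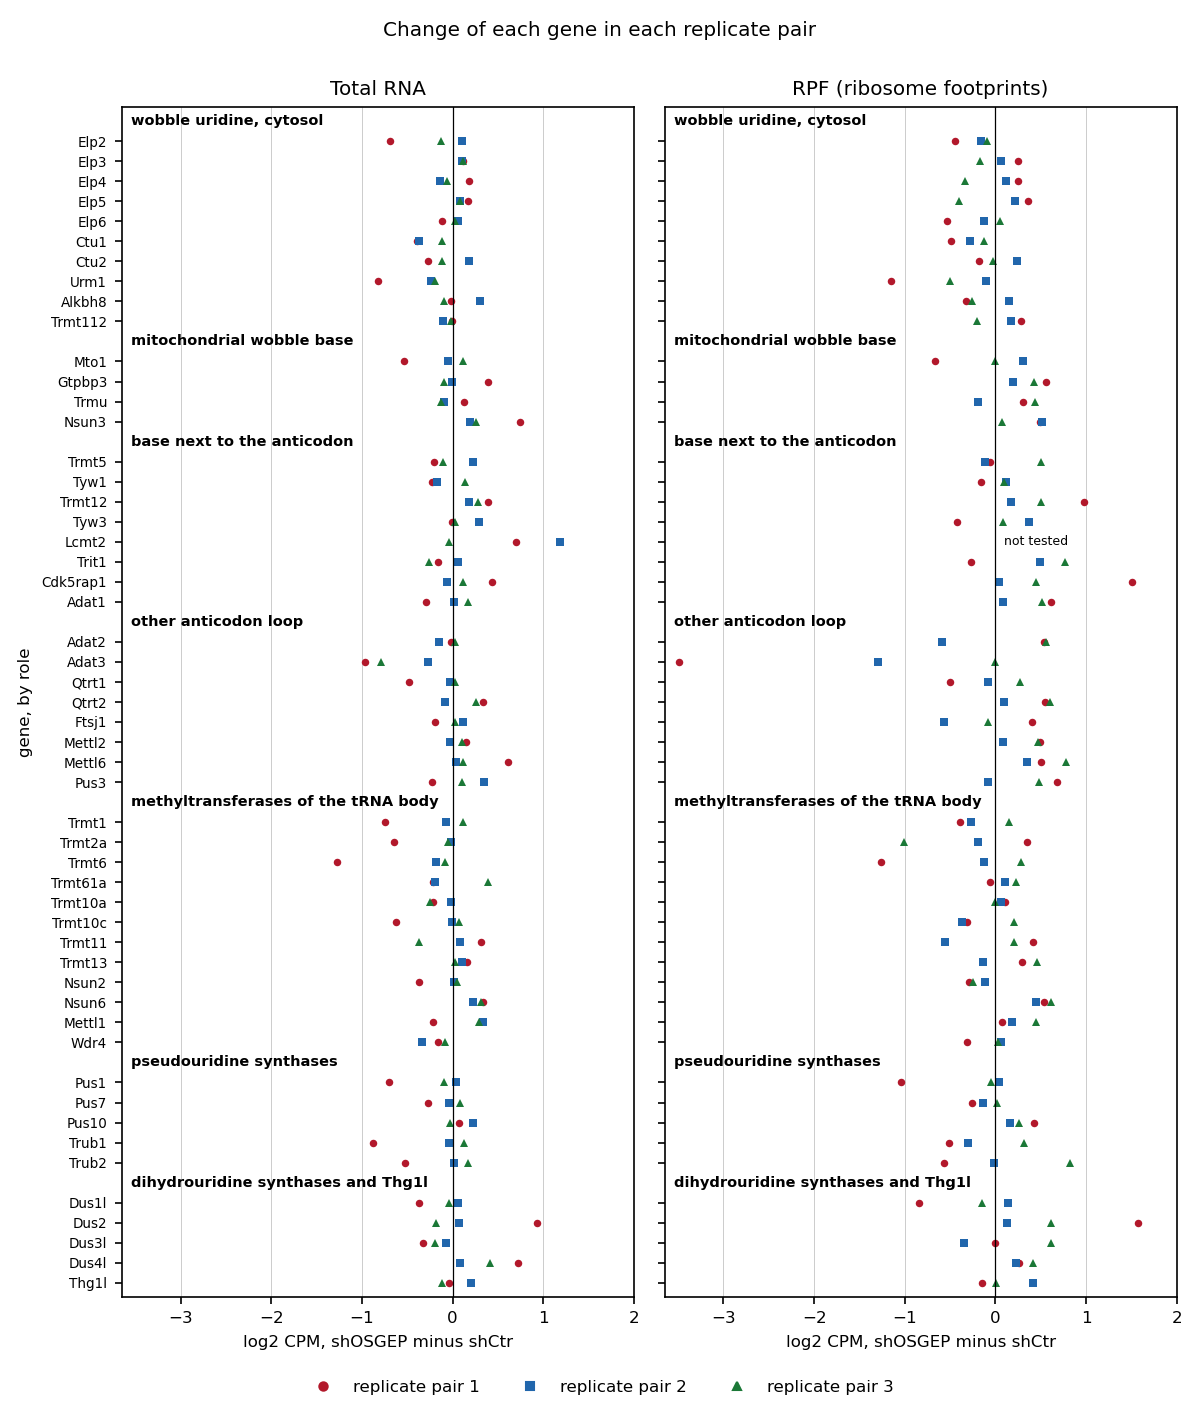
Log2 CPM of shOSGEP minus shCtr within each replicate pair, for the 52 genes grouped by role, in total RNA (left) and RPF (right). Each point is 1 pair of libraries with the same replicate number, the vertical line marks no difference, and Lcmt2 was not tested in RPF. The points of pairs 2 and 3 lie close to 0 in RNA, those of pair 1 spread further, mostly to the lower side, and RPF spreads more than RNA in every pair.

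Replicate pair 1 held the largest differences in most members. The median absolute RNA change of the members was 0.32 in pair 1, 0.10 in pair 2 and 0.11 in pair 3, against 0.47, 0.16 and 0.13 over all genes. Beyond 0.5 on the log2 scale lay 16 members in pair 1 (30.8%) and 1 each in pairs 2 and 3 (1.92%). Over all genes these shares were higher, at 47.6%, 15.1% and 13.3%. The largest of the 3 RNA differences was that of pair 1 in 35 of 52 members, 22 of them lower, and in 70.1% of all genes. The members' median RNA change was −0.18 in pair 1, with 18 of 52 above 0, and 0.02 in both other pairs, with 28 of 52 above 0 in each. Without both libraries of replicate 1 the median RNA change was 0.02 and 0 members were called. Pair 1 also held the lowest Osgep RNA, the lowest melanocyte markers in RNA and the fewest RPF counts on the members, all in shOSGEP. In RPF, shOSGEP replicate 1 had the highest Osgep value of its genotype. The part of each in these values was not tested.

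Among the 10 genes of the cytosolic wobble uridine, 4 had a log2 change above 0 in RNA (median −0.03) and 4 in RPF (median −0.06), and none passed the test. Urm1 measured 36.6, 48.7 and 36.8 CPM in shCtr RNA and 20.7, 41.3 and 32.2 CPM in shOSGEP RNA, and 17.9, 15.9 and 19.1 against 8.01, 14.9 and 13.5 CPM in RPF. It was lower in all pairs, the genotypes overlapped in RNA and not in RPF, and replicate 1 gave the largest difference. The fitted changes were −0.37 in RNA (SE 0.27, unadjusted p = 0.210, edgeR) and −0.53 in RPF (SE 0.29, unadjusted p = 0.110, edgeR), ranging from −0.63 to −0.16 and from −0.72 to −0.31 as single libraries, or both of replicate 1, were left out. The RNA value was −0.16 without shOSGEP replicate 1 and −0.22 without shCtr replicate 2. Ctu1, the catalytic subunit of the thiolase that Urm1 feeds, measured 7.21, 12.5 and 9.03 CPM in shCtr RNA against 5.49, 9.66 and 8.33 CPM in shOSGEP, and 2.82, 3.64 and 3.14 against 1.98, 2.97 and 2.88 CPM in RPF. It was lower in all pairs, and the values overlapped between genotypes in both assays. Its change was −0.29 in both assays (SE 0.31 in RNA and 0.37 in RPF), and in RNA it was −0.05 without shCtr replicate 2 and −0.10 without shOSGEP replicate 1. The RPF value was −0.14 without shOSGEP replicate 1. Its partner Ctu2 had changes of −0.07 in RNA and −0.00 in RPF, but 47.3% of its exonic bases overlap the opposite-strand gene Piezo1, and the use of strand in the counting was not stated.

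Elongator showed no common direction. The log2 changes of Elp2, Elp3, Elp4, Elp5 and Elp6 in RNA were −0.18, 0.11, −0.01, 0.11 and 0.00, and in RPF −0.24, 0.07, 0.08, 0.13 and −0.19, each within 1 standard error of 0. Elp3 measured 48.8, 57.6 and 51.8 CPM in shCtr RNA and 52.7, 61.9 and 56.2 CPM in shOSGEP, the steadiest of these subunits, with pair differences of 0.11, 0.10 and 0.12. Elp2, a scaffold subunit, was 34.5 CPM in shOSGEP replicate 1 and 55.7 to 67.9 CPM in the other libraries, and its RNA change was 0.05 without that library. Alkbh8 had changes of 0.07 in RNA and −0.11 in RPF, and its partner Trmt112, of whose exonic bases 33.2% overlap Prdx5 on the opposite strand, changes of −0.05 and 0.14.

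The 4 enzymes of the mitochondrial wobble base had median changes of 0.04 in RNA and 0.30 in RPF. Nsun3, which methylates the wobble cytidine of the mitochondrial methionine tRNA, had the smallest p of all members in RNA. It measured 21.1, 19.2 and 17.5 CPM in shCtr and 35.2, 21.9 and 21 CPM in shOSGEP, and in RPF 6.99, 5.27 and 5.79 against 9.83, 7.58 and 6.09 CPM. It was higher in every pair, most in RNA of replicate 1, and the genotypes overlapped in both assays. The changes were 0.43 in RNA (SE 0.24, unadjusted p = 0.112 and adjusted p = 0.975, edgeR) and 0.38 in RPF (SE 0.30), and without shOSGEP replicate 1 these were 0.14 and 0.17. Gtpbp3 and Mto1, which act together on mitochondrial wobble uridines, had RPF changes of 0.40 (SE 0.42; −0.01 without shOSGEP replicate 3) and −0.03 (SE 0.37), and Trmu, the mitochondrial thiolase, one of 0.22 (SE 0.31).

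The 8 enzymes that modify the base next to the anticodon, the base that bears t6A in other tRNAs, had a median change of 0.06 in RNA, with 5 of 8 above 0. All 7 that were tested in RPF had positive values there (median 0.42), against 54.9% of all genes. Their RPF medians were −0.06, 0.12 and 0.50 in pairs 1, 2 and 3. Lcmt2, not tested there, had a mean RPF of 0.63 CPM in shCtr and 0.57 CPM in shOSGEP, on 4 to 27 counts per library. In translational efficiency all 7 were positive too (median 0.22), against 49.6% of all genes. None had an unadjusted p under 0.05 (edgeR). All pairs were higher in 3 of the 7 in RPF (background: 2113 of 13529 genes) and in 2 in translational efficiency (background: 1458 of 12560 genes). In pair 1 of RPF, 3 of the 7 were above 0.5 on the log2 scale and 4 were below 0. Beyond 0.5 in either direction in that pair lay 42.9% of the 7 and 54.3% of all genes. Trmt12, of the wybutosine pathway, measured 4.80, 5.46 and 5.00 CPM in shCtr RNA and 6.29, 6.21 and 6.08 CPM in shOSGEP, and 2.14, 4.06 and 3.39 against 4.29, 4.58 and 4.82 CPM in RPF. The shOSGEP values lay above all shCtr values in both assays. The changes were 0.28 in RNA (SE 0.21) and 0.51 in RPF (SE 0.36, unadjusted p = 0.196, edgeR), and the RPF value rested on 38 to 186 counts per library and was 0.29 without shCtr replicate 1, the lowest of them, and 0.33 without both libraries of replicate 1. Cdk5rap1, which adds a methylthio group to isopentenyladenosine in mitochondria, measured 1.46, 3.21 and 2.22 CPM in shCtr RPF and 4.29, 3.31 and 3.06 CPM in shOSGEP (change 0.62, SE 0.43). The genotypes overlapped, and the low value of shCtr replicate 1 rested on 26 counts. The change was 0.38 without that library and 0.22 without both libraries of replicate 1. Trit1, which makes the isopentenyladenosine, had the highest value of all members in translational efficiency, 0.54 (SE 0.48, unadjusted p = 0.288, edgeR). Its pairs gave −0.11, 0.44 and 1.03, and without shOSGEP replicate 3 the value was 0.03. Adat1, the deaminase acting next to the anticodon of alanine tRNA, had a change of 0.42 in translational efficiency (SE 0.47), with pairs of 0.91, 0.07 and 0.35, and the value was 0.10 without shOSGEP replicate 1 and 0.24 without both libraries of replicate 1.

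Of the 8 other enzymes of the anticodon loop, 4 were above 0 in RNA (median 0.03) and 5 in RPF (median 0.24). Mettl6, a 3-methylcytidine methyltransferase of serine tRNA, measured 13.0, 14.6 and 14.4 CPM in shCtr RNA and 19.9, 15.0 and 15.6 CPM in shOSGEP. Its RPF stood at 6.09, 7.21 and 10.6 CPM in shCtr and at 8.67, 9.23 and 18.3 CPM in shOSGEP. It was higher in all pairs, did not overlap in RNA and overlapped in RPF. The change was 0.27 in RNA (SE 0.19) and 0.59 in RPF (SE 0.39, unadjusted p = 0.174, edgeR), neither past the test. The RNA change was 0.12 without shOSGEP replicate 1 and 0.07 without both libraries of replicate 1, and the RPF change was 0.16 without shOSGEP replicate 3. With the replicate number as a block, 1 of 51 members was under an unadjusted p of 0.05 in RPF (1.96%, background 4.06%), which was Mettl6 (unadjusted p = 0.0379 and adjusted p = 0.817, edgeR). That share was below the background. The related Mettl2 was 0.07 in RNA and 0.35 in RPF (SE 0.32), the latter 0.14 without shOSGEP replicate 3. Adat3, the second subunit of the wobble adenosine deaminase, could not be followed in RPF: it had 13, 23 and 0 counts in shCtr and 0, 17 and 0 in shOSGEP. Of its exonic bases, 92.0% overlap another gene on the same strand, so its counts are uncertain in both assays. Its RNA measured 2.33, 3.85 and 3.04 CPM in shCtr and 1.18, 3.19 and 1.74 CPM in shOSGEP, lower in each pair but overlapping (change −0.59, SE 0.44; −0.32 without shOSGEP replicate 1 and −1.08 without shOSGEP replicate 2). The catalytic partner Adat2 was steady in RNA, 4.86 to 5.39 CPM over all 6 libraries (change −0.05, SE 0.22). Qtrt1 and Qtrt2 had RNA changes of −0.15 and 0.15. Pus3, a pseudouridine synthase of the anticodon arm, shares 88.1% of its exonic bases with Hyls1 on the opposite strand, so its counts are uncertain.

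The 12 methyltransferases of the tRNA body had a median RNA change of −0.09, with 3 of 12 above 0, and a median RPF change of −0.03, with 5 of 12 above 0. Trmt6 measured 49.3, 54.1 and 46.5 CPM in shCtr RNA and 20.3, 47.7 and 43.9 CPM in shOSGEP, and 23.7, 22 and 20.4 against 9.83, 20.2 and 25.0 CPM in RPF. Only shOSGEP replicate 1 was low, in both assays, and the other libraries overlapped. The RNA change was −0.42 (SE 0.31) with all libraries and −0.13 without shOSGEP replicate 1. Its partner Trmt61a stood at 17 CPM in that RNA library, and at 18.1 to 27.9 CPM in the others, so that the RNA ratio per length of Trmt61a to Trmt6 was 0.97 there against 0.60 and 0.63 in the other shOSGEP replicates. Nsun6, which methylates a cytosine in the acceptor stem, measured 4.80, 4.95 and 6.41 CPM in shCtr RNA and 6.04, 5.77 and 7.94 CPM in shOSGEP. Its RPF stood at 2.7, 2.67 and 3.49 against 3.96, 3.65 and 5.39 CPM, with no overlap in RPF. The pairs were even, 0.33, 0.22 and 0.31 in RNA and 0.54, 0.44 and 0.62 in RPF. The changes of 0.29 (SE 0.25) and 0.55 (SE 0.35, unadjusted p = 0.153, edgeR) did not pass the test, and without shOSGEP replicate 3 they were 0.12 and 0.36. Nsun2, the most abundant member in RNA, had changes of −0.08 in RNA and −0.20 in RPF, and Mettl1 and Wdr4 of 0.18 and −0.21 in RNA.

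The 5 pseudouridine synthases had median changes of −0.12 in both assays, with 1 of 5 above 0 in RNA. Pus1 measured 35.1, 46.1 and 38.8 CPM in shCtr RNA and 21.6, 47.2 and 36.4 CPM in shOSGEP, so that shOSGEP replicate 1 alone was low (pairs −0.70, 0.03 and −0.09). Trub1 showed the same layout with pairs of −0.88, −0.04 and 0.12. Their RNA changes, −0.19 in both, were 0.05 and 0.09 without that library. Among the dihydrouridine synthases, Dus4l measured 3.71, 6.11 and 5.95 CPM in shCtr RNA and 6.12, 6.46 and 7.92 CPM in shOSGEP, and 1.30, 1.33 and 1.54 against 1.57, 1.58 and 2.07 CPM in RPF. The genotypes did not overlap in either assay, although they nearly met, at 6.11 and 6.12 CPM in RNA and at 1.54 and 1.57 CPM in RPF. The RPF values rested on 19 to 80 counts. The RNA change of 0.38 was 0.18 without shCtr replicate 1 and 0.24 without shOSGEP replicate 3, and the RPF change of 0.32 was 0.17 without shOSGEP replicate 3. Dus2 had the smallest p of all members in RPF, with 2.87, 3.39 and 2.7 CPM in shCtr and 8.67, 3.72 and 4.17 CPM in shOSGEP. The groups did not overlap, and shOSGEP replicate 1 lay apart from the rest. The change was 0.88 (SE 0.42, unadjusted p = 0.0774 and adjusted p = 0.9998, edgeR), and it was 0.39 without shOSGEP replicate 1 and 0.36 without both libraries of replicate 1. Dus3l was lower in all RNA pairs without overlap, at 38.1, 35.4 and 36.9 CPM in shCtr and 30.4, 33.6 and 32.3 CPM in shOSGEP (change −0.20, SE 0.13, unadjusted p = 0.172, edgeR), while its RPF change was 0.16 (SE 0.33). Thg1l, which adds the extra guanosine of histidine tRNA, had changes of 0.04 and 0.10.

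**Figure D3:**
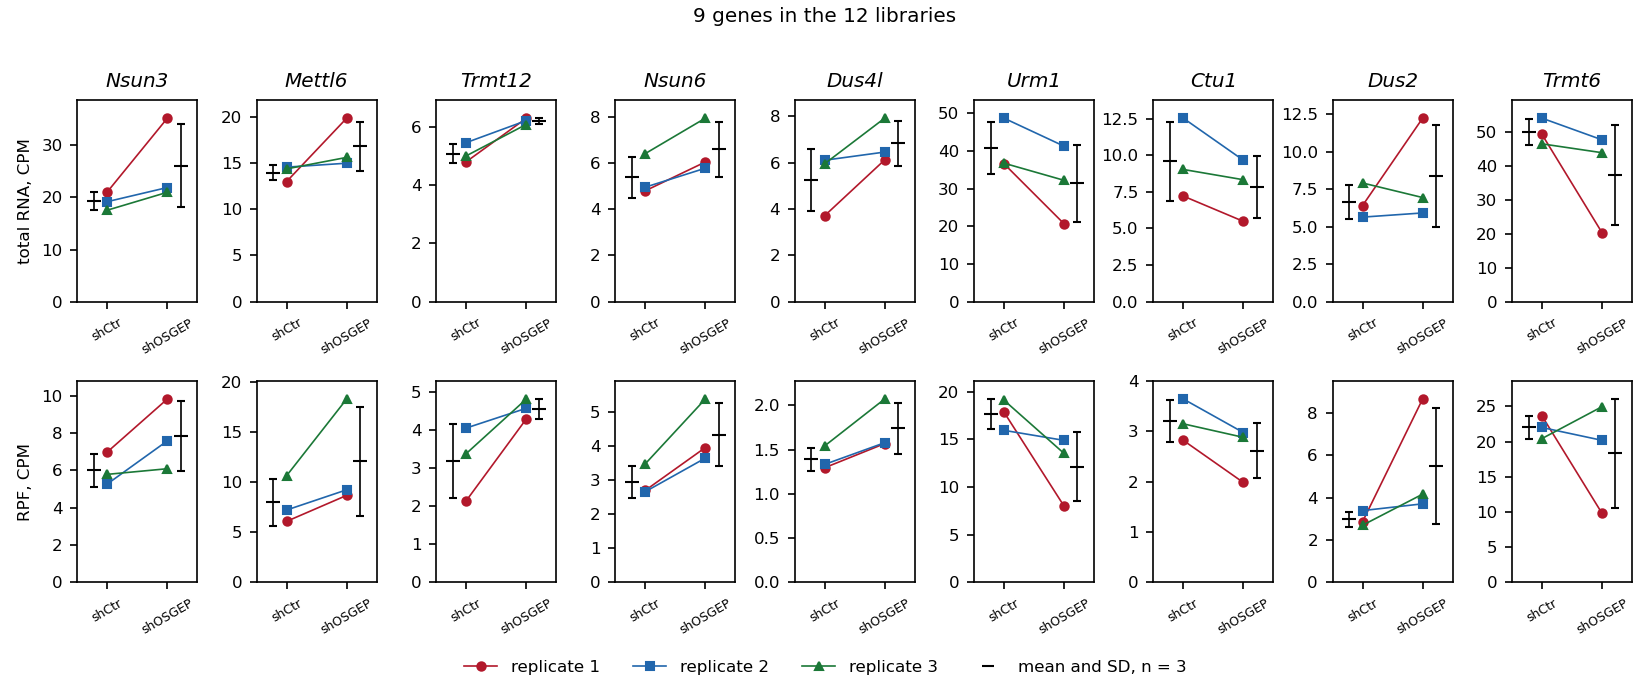
CPM of 9 genes in the 12 libraries, total RNA in the top row and RPF in the bottom row, with lines joining shCtr and shOSGEP libraries of one replicate number and black bars giving the mean and SD of 3 replicates. Axes start at 0. Nsun3, Mettl6, Trmt12, Nsun6 and Dus4l lie higher and Urm1 and Ctu1 lower in shOSGEP in every pair, and in Dus2 and Trmt6 the shOSGEP replicate 1 library stands apart.

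The use of codons starting with A did not order the changes. Across the 51 members, the change in translational efficiency and the share of these codons had a Spearman coefficient of −0.02, and of 0.04, −0.14 and 0.08 in pairs 1, 2 and 3 (genes share libraries and are not independent). Urm1 with few of them and Trmt10c with many, whose starts are printed above, had changes in translational efficiency of −0.17 (SE 0.39) and −0.09 (SE 0.61). Adat3, with the lowest share, had a change of −1.19, but its RPF counts were 0 in several libraries. That value ran from −6.76 to −0.37 as single libraries were left out.

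The footprint to RNA ratio of each member was then taken within each genotype, with all 6 libraries of the genotype scaled together, so that 0 is the level of the typical gene. In shCtr, 3 of 52 members were called at an adjusted p of 0.05, all with more footprints (5.77%, background 15.2%). These were Adat1 with a log2 ratio of 1.41 (SE 0.26, adjusted p = 0.00795, edgeR), Trmu with 1.01 (SE 0.20, adjusted p = 0.0120, edgeR) and Pus1 with 0.71 (SE 0.17, adjusted p = 0.0249, edgeR). Adat1 measured 4.32, 6.02 and 6.78 CPM in shCtr RNA and 5.80, 5.46 and 6.91 CPM in RPF, and Trmu 6.92, 7.33 and 6.94 against 5.47, 5.58 and 6.03 CPM. Most members had RPF values well below their RNA values in CPM, such as Elp3 with 25.4, 31.9 and 22.7 CPM in RPF, so that near-equal values mark a high ratio. Of those not called, the highest were Lcmt2 at 1.27, where the error was large (SE 1.12), Trmt2a, a uridine methyltransferase, at 1.19 (SE 0.34) and Trmt13, which methylates the acceptor stem, at 0.73 (SE 0.38). The lowest were Adat3 at −0.90 (SE 1.08), Ftsj1, a ribose methyltransferase of the anticodon loop, at −0.81 (SE 0.27), Elp4 at −0.69 (SE 0.25), Dus4l at −0.59 (SE 0.32) and Trmt1, a guanosine methyltransferase, at −0.43 (SE 0.19).

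The calls rested on few libraries. Without shCtr replicate 1 only Trmt2a was called, without replicate 2 only Adat1 and without replicate 3 none. With the replicate number as a block, 6 members were called (11.5%, background 25.1%), namely Adat1, Trmu, Pus1 and Trmt2a above 0 and Ftsj1 and Elp4 below 0. In shOSGEP, 0 of 52 members were called (background: 5.83%) and 4 had an unadjusted p under 0.05 (7.69%, background 17.9%). Adat1 was again the highest at 1.80 (SE 0.41, adjusted p = 0.0510, edgeR), followed by Trmu at 1.21 (SE 0.33). With the block, Adat1, Trmu and Trmt2a were called in shOSGEP (5.77%, background 13.5%). The ratios of the 2 genotypes, which share no library, had the same sign in 47 of 52 members. The Pearson coefficient was 0.87 and the Spearman coefficient 0.89 across the 52 genes, which are not independent. Coding share and overlapping genes are the same for a gene in both genotypes, and no value over all genes is given, so the agreement is descriptive. The test of the difference between the genotypes is that of translational efficiency given above, which called none.

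**Figure D4:**
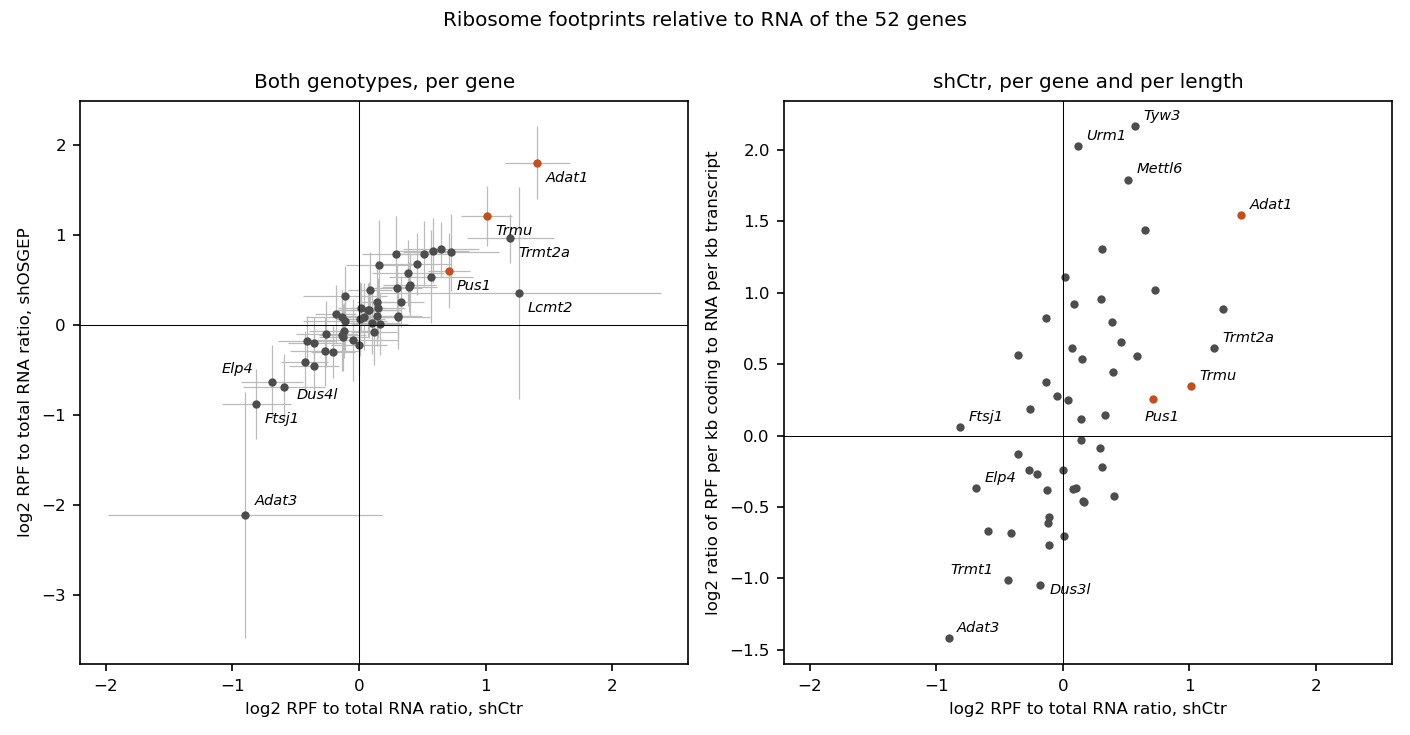
Log2 ratio of RPF to total RNA counts of the 52 genes relative to the typical gene. The left plot sets shCtr against shOSGEP, with bars of 1 standard error of the edgeR fit, and the right plot sets the shCtr ratio against the same ratio with RPF taken per kb of coding sequence and RNA per kb of transcript. Orange marks Adat1, Trmu and Pus1, called in shCtr. The points of the left plot lie along the diagonal, and in the right plot Urm1, Tyw3 and Mettl6 move to the top.

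Counts per gene treat the whole transcript as one length, whereas footprints come mostly from the coding sequence. Taken per length, relative to the median gene, Adat1 kept a high shCtr value, 1.54, while Trmu stood at 0.35, Pus1 at 0.26 and Trmt2a at 0.61, as values without a test. Tyw3 stood highest at 2.16, then Urm1 at 2.03 and Mettl6 at 1.79, whose coding sequences make up 17.2%, 13.8% and 21.4% of the annotated transcripts. Ftsj1 moved from −0.81 to 0.06, and the lowest were Adat3 at −1.42, Dus3l at −1.05 and Trmt1 at −1.01. Across the members, the ratio per gene did not follow the coding share of the transcript (Spearman 0.02, n = 52), against 0.20 over 11255 genes. Of the genes with a high ratio, 23.8% of the exonic bases of Pus1 and 15.5% of those of Trmt2a overlap a gene on the opposite strand, and what these overlaps add to their counts was not tested.

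The members can be read beside other genes of the same biology. A further list held 36 genes taken for tRNA modification, such as Nat10, without those that make t6A. It is not free of t6A biology, as it includes Cdkal1, which the study names for the thiomethylation of t6A. Of these 36, 0 passed the adjusted test and 0 reached an unadjusted p under 0.05 in RNA, RPF or translational efficiency (edgeR). Their median changes were −0.02, 0.10 and 0.09 beside the members' −0.01, 0.08 and 0.08. The 20 cytosolic aminoacyl-tRNA synthetases, which charge the tRNAs and were taken as a list for comparison, had a median RNA change of 0.25 with 16 of 20 above 0. In RNA, 4 of the 20 (Cars, Tars, Lars and Nars) had an unadjusted p under 0.05 (background: 1.78%), 0 did so in RPF or translational efficiency, and 0 were called in any of the 3 comparisons (edgeR). All 3 RNA pairs had positive medians, 0.33, 0.15 and 0.21, and in RPF these were 0.56, −0.00 and −0.01. These lists were chosen with earlier results of these data known, and the difference between them was not tested.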

How the data were processed

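Total RNA (labelled polyA RNA) and RPF libraries of B16F10 cells were analysed from the 2 deposited tables of gene counts. RPF were made with cycloheximide, nuclease digestion and a puromycin-analogue pulldown. For these counts, the authors trimmed and aligned reads with FastQC 0.11.9, Trim Galore 0.6.6, cutadapt and STAR per the labels, which name both GRCm39 and GRCm38. The study's methods name STAR with Salmon on GRCm38 for total RNA sequencing and a coding transcriptome for footprints, given as GRCm38 in one place and GRCm39 in another. Which step gave these tables, its annotation and its use of strand were not given in the sources used here. Of 55487 gene IDs, 55227 matched GENCODE M21 (GRCm38), which gave names, lengths and coding sequences from 1 principal transcript per gene.

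Groups were taken from the labels. Genes were filtered with filterByExpr, scaled by TMM and tested by the quasi-likelihood test of edgeR 4.0.16 (R 4.3.3) without a block, with Benjamini-Hochberg adjustment over all genes tested and a threshold of 0.05. Translational efficiency was the interaction of assay and genotype, and ratios within a genotype used its 6 libraries. Standard errors were the absolute log2 change over the square root of F. Pair differences used log2 CPM with a prior count of 2. Same-numbered shCtr and shOSGEP libraries deviated together from their group means (correlations 0.52, 0.54 and 0.29 in RNA and 0.59, 0.51 and 0.66 in RPF), so the numbers were treated as pairing, and a fit with the number as a block was an alternative. The others were DESeq2 1.42.0, RLE scaling, other filters, protein-coding genes only, another TMM scaling, and each library or replicate 1 left out. The scripts were tested on simulated data.

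The members and lists were chosen with earlier results of these data known. Genes were named by smallest p, highest and lowest ratio and level, and agreement of all pairs in both assays, with partner subunits and each role's leading genes added after their values were seen.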

Additional observations from a re-analysis of the deposited data

How the results depend on the processing

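In RNA, RPF and translational efficiency, 0 members were called under every alternative run. Leaving out single libraries moved the members' median change from −0.12 to 0.06 in RNA, −0.02 to 0.18 in RPF and 0.02 to 0.14 in translational efficiency, so its sign turned in RNA and RPF and stayed positive in translational efficiency. The change of Dus3l in translational efficiency ranged from −0.029 to 0.54, and was −0.029 without shOSGEP replicate 3. The cause was not tested.

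Ratios within a genotype depended more on the setting. In shCtr, where 3 members were called, 5 were with DESeq2, 6 without the filter, 0 to 1 with a library left out and 43 with TMM within each assay. In shOSGEP, where 0 were called by edgeR and 4 had an unadjusted p under 0.05, 4 were with DESeq2, 1 without the filter, 0 to 1 with a library left out (Ftsj1 without replicate 1) and 34 with TMM within each assay. With pairing as a replicate block, 6 members were called in shCtr and 3 in shOSGEP, and the block changed no other call of a member. TMM within each assay moves the median of all genes to −1.17 in shCtr and −1.41 in shOSGEP by its construction, and turned Trmu (−0.18) and Trmt13 (−0.46) in shCtr and Lcmt2 (−1.05), Trmt2a (−0.45), Trmu (−0.20) and Trmt13 (−0.61) in shOSGEP. All of these still lie above that median.

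Over all genes, the shCtr ratio calls were 2168, against 5268 without the filter, 3572 with the block, 10973 with TMM within each assay, 1256 in coding genes, 1295 with at least 10 counts and 1229 to 1494 with a library left out. The shOSGEP calls were 844, against 1644 with DESeq2, 3578, 1959, 8998, 207, 226 and 223 to 1757 in the others. For genotype, where edgeR called 0 genes, 8 were called by DESeq2 and 1 with the block in RNA, 1 by DESeq2 and 229 without the filter in RPF, and 21 without the filter in translational efficiency. The depth of RPF, down to 6053 counts on the members in shOSGEP replicate 1, limits the precision of every footprint value.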
